A study of Mus musculus with 6 samples.

Results

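Cytochrome c oxidase, complex IV of the mitochondrial respiratory chain, holds subunits that exist in pairs of tissue isoforms, and 4 such pairs were examined in inguinal adipose tissue (iAT) of young mice. They comprise 8 genes, *Cox4i1* and *Cox4i2*, *Cox6a1* and *Cox6a2*, *Cox7a2* and *Cox7a1*, and *Cox8a* and *Cox8b*, of the 19831 genes listed. They were taken by gene symbol, as members of subunit pairs, and the pairs were chosen by the wild-type and Npffr1-KO values of these same samples, so the differences between the genotypes are given as a description, without a test. The 6 samples were 3 of wild-type mice (WT) and 3 of Npffr1-KO mice (KO), in which the receptor NPFFR1 for neuropeptide FF is deleted, all from iAT of postnatal day 6. The labels name no other allele or treatment, and they do not say how the gene was deleted, which strain or sex was used, or whether the samples of a genotype came from separate animals.

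Complex IV passes electrons from cytochrome c to oxygen and pumps protons across the inner mitochondrial membrane. Its catalytic core is encoded by mitochondrial DNA, and the small nuclear-encoded subunits around it set its stability and its regulation. For some of these subunits most tissues use a ubiquitous form, while heart, skeletal muscle and brown fat also express a second form encoded by another gene. *Cox6a2*, *Cox7a1* and *Cox8b* are such heart, muscle and brown fat forms, and *Cox7a1* and *Cox8b* are widely used as markers of thermogenic adipocytes. *Cox4i2* differs from them, as it is best known from lung and from cells of the vessel wall and is linked to oxygen sensing.

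The isoforms of a pair are encoded by separate genes whose sequences have drifted far apart. In the coding sequences without their stop codon, 55.7% of the 201 aligned bases of *Cox8a* and *Cox8b* were identical, 62.5% of 240 for the Cox7a pair, 64.6% of 291 for the Cox6a pair and 69.0% of 487 for the Cox4i pair. The Cox8 and Cox7a pairs are shown because their tissue forms differed most between the genotypes. Capitals mark the bases that differ from the partner or have no counterpart in it. The sequences are those of the GENCODE transcripts of GRCm38.
Cox8a: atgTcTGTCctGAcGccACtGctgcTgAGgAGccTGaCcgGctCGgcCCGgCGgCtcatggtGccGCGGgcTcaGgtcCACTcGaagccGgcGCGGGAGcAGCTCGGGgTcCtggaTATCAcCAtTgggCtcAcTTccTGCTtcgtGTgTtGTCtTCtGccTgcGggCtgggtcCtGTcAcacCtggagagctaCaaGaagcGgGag
Cox8b: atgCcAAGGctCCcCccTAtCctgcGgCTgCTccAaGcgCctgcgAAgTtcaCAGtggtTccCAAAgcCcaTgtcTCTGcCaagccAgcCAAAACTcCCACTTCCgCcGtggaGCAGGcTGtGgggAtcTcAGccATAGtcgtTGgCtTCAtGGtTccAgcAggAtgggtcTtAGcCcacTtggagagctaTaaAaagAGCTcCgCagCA
Cox7a2: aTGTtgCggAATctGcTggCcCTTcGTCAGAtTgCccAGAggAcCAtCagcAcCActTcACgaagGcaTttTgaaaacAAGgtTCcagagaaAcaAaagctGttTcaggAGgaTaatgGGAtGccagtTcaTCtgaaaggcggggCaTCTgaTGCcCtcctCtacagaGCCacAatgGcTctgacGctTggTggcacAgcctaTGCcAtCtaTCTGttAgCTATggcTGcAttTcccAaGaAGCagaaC
Cox7a1: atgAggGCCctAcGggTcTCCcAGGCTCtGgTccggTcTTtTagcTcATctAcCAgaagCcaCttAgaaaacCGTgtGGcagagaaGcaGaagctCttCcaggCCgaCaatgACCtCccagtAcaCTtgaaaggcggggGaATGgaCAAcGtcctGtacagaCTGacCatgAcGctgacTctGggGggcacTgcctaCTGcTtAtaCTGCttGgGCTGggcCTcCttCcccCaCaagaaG

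No stretch of 31 bases was shared between the partners of any pair, so reads of this length can be told apart within a pair. For *Cox4i1*, *Cox4i2*, *Cox6a2*, *Cox7a1*, *Cox8a* and *Cox8b* no such stretch occurred in transcripts of any other gene. Of those of *Cox6a1* 23.8% were found in 1 other annotated gene, and of those of *Cox7a2* 4.13% in 1 other, so the values of these genes depend on how the authors' counting divided shared reads. The 3 heart, muscle and brown fat forms all lie on chromosome 7 of GRCm38, *Cox7a1* from 30184144 to 30186078, *Cox6a2* from 128205435 to 128206387 and *Cox8b* from 140898945 to 140900446. *Cox4i2* lies on chromosome 2 from 152754173 to 152765037. The ubiquitous forms are spread over chromosomes 8, 5, 9 and 19.

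The regions before the transcription start also differed between the forms. RefSeq promoter sequences of the build GRCm38.p6 were found for 5 of the 8 genes, and the 250 bases before the start were examined. The count of CG dinucleotides was 1 for *Cox8b* and 4 for *Cox7a1*, against 11 for *Cox8a*, 14 for *Cox7a2* and 26 for *Cox6a1*. The median of 27025 promoters was 6, so both tissue forms lay below it and all 3 ubiquitous forms above it. The windows of the Cox8 and Cox7a pairs are printed to show this, with CG dinucleotides in capitals. They are *Cox8a* at chr19:7217617-7217866 on the minus strand, *Cox8b* at chr7:140900447-140900696 on the minus strand, *Cox7a2* at chr9:79759854-79760103 on the minus strand and *Cox7a1* at chr7:30183921-30184170 on the plus strand.
Cox8a: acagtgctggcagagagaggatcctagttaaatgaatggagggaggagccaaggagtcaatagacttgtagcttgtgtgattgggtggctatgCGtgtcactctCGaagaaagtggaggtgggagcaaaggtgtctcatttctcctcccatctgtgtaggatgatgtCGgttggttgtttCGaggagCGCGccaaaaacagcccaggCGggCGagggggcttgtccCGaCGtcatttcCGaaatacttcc
Cox8b: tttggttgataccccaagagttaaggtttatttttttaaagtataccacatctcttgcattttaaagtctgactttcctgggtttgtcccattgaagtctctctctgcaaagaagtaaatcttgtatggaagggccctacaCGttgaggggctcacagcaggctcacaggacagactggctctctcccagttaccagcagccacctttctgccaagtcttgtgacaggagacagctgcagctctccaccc
Cox7a2: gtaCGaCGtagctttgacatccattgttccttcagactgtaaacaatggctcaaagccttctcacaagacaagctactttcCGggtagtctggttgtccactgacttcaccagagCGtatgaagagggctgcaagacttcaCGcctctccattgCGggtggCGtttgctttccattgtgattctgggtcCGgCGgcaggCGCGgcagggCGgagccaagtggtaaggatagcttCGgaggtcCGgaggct
Cox7a1: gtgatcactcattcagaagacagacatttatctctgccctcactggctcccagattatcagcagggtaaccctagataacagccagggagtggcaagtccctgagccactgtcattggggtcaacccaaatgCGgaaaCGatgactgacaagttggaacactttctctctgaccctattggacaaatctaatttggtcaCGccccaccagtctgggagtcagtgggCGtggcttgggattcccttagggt

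Motifs were searched for on both strands of these windows. The AGGTCA motif of nuclear receptors, its longer forms AAGGTCA and TCAAGGTCA, which hold it, and the MEF2 site of muscle genes were found in none of the 5 windows. They occur in 13.8%, 4.05% and 0.366% of all promoters, and the 2 spellings of the MEF2 site that were searched in 0.144% and 0.107%. The E-box CANNTG occurred 1 time each in *Cox7a1*, *Cox7a2*, *Cox8a* and *Cox8b*, and in 66.0% of all promoters. The NRF1 site, a common element of respiratory genes, occurred in *Cox6a1* only among these 5 genes, from 162 to 153 bases before the start, and in 0.781% of all promoters. These are matches of letters in a short window and say nothing about binding.

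The table holds 1 value per gene and genotype, called normalized value here, and these add up to 23137343 in WT and 23640005 in KO. It gives no spread between samples. For genes with few reads the reads of each library could be worked out, because genes with a lone read in the whole experiment fall on 6 values, which are those of the 6 libraries. The genotype with the higher value gives the genotype of each library, but the libraries could not be tied to sample numbers, and they are named a, b and c within each genotype. Of the 1128 genes with a mean normalized value of 10 to 25, 98.6% matched exactly 1 combination of whole reads. The mean of the deposited values of such a gene is that of its reads scaled to a common library size, but its ratio is not. For 1102 of the 1107 of these genes with reads in both genotypes, the deposited log2 ratio was smaller in size than that of the scaled reads. A normalized value is therefore not the mean count of a genotype, and the ratios of *Cox7a1*, *Cox8b* and all other genes given by deposited values carry this limit. Of the targeted gene *Npffr1* there were 6 reads in the WT libraries and 0 in those of KO, where a count of 0 allows up to 3. WT library b also had 0, so the gene hardly checks the labels. All 8 white adipocyte markers on the list were present, led by *Fabp4*, the fatty acid binding protein of adipocytes, with a normalized value of 156285 in WT and 173188 in KO.

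The KO libraries were unlike each other in skeletal muscle genes. *Ckm*, the creatine kinase of muscle, had 2, 3 and 2 reads in the WT libraries, and 215 reads in KO library a, 1 in b and 6 in c. *Myh1*, a fast myosin heavy chain, had 2, 6 and 4 reads in the WT libraries and 289, 0 and 0 in the KO libraries. Both genes were chosen after their values were seen. Over the 10 listed muscle genes whose reads were found, the sum was 171 to 202 scaled reads in the WT libraries, 191 and 184 in KO libraries b and c, and 955 in KO library a. Without *Ckm* and *Myh1* it was 165 to 193 in the WT libraries, 190 and 178 in KO libraries b and c, and 469 in KO library a. KO library a thus stood apart on both sums, while the other KO libraries lay within the range of WT. *Ckm* was 31.3-fold higher in KO over all libraries and 1.65-fold higher without KO library a, from 7 reads in each genotype. The deposited values hide this, as they were 27.5 for *Ckm* in WT and 46.4 in KO, against means of 2.28 ± 0.566 and 71.6 ± 117 (SD, n = 3) from the reads. The same held for *Myh1*, with deposited values of 43.8 in WT and 53.0 in KO against means of 3.93 ± 1.97 and 92.8 ± 161 (SD, n = 3).

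Levels of the 8 genes were compared per kilobase of listed gene length. The ubiquitous forms were among the highest genes of the tissue. In WT, *Cox8a* had a normalized value of 20265 per kilobase, *Cox6a1* 15743 and *Cox4i1* 12415, above 99.7%, 99.5% and 99.4% of all listed genes. *Cox7a2* was lower, with a normalized value of 2709 per kilobase. Among the tissue forms in WT, *Cox8b* had a normalized value of 1202 per kilobase, *Cox7a1* 520, *Cox4i2* 372 and *Cox6a2* only 18.9. Every ubiquitous form was thus higher than every tissue form in WT. In KO the order differed at 1 place, where *Cox8b* with a normalized value of 4091 per kilobase lay above *Cox7a2* with 3754. The order of the others was that of WT, from *Cox8a* with 25240.5 to *Cox6a2* with 52.2. As each genotype has 1 value, neighbours in this order cannot be compared with their spread.

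**Figure D1:**
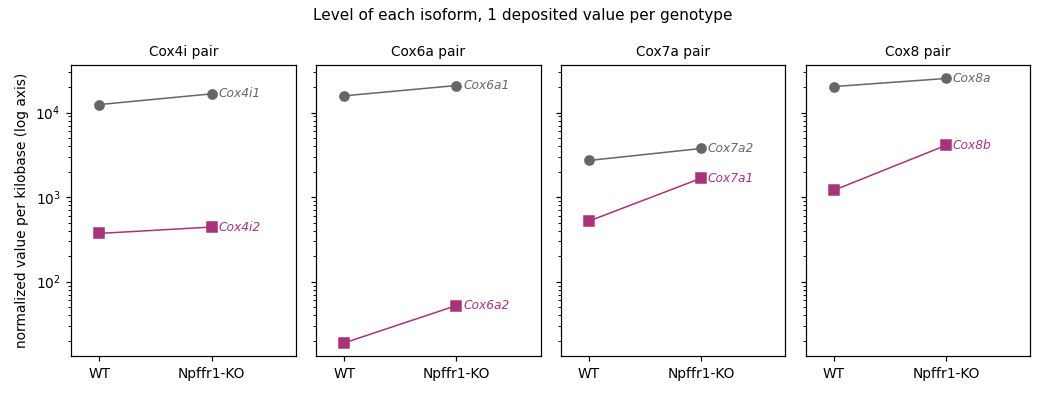
Normalized values per kilobase (log axis) of both isoforms of each pair in WT and KO, with circles for ubiquitous and squares for tissue forms, each point being the deposited value of a genotype. The lines of *Cox7a1* and *Cox8b* climb steeply, to 1673 and 4091 in KO, whereas *Cox4i2* runs almost parallel to *Cox4i1*.

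The heart, muscle and brown fat forms differed far more between the genotypes than their ubiquitous partners. *Cox8b*, of the smallest subunit, had a normalized value of 460 in WT and 1567 in KO, 3.40-fold more. *Cox7a1* had a normalized value of 204 in WT and 657 in KO, 3.22-fold more. *Cox6a2*, of the subunit that binds adenine nucleotides, had a normalized value of 12.8 in WT and 35.4 in KO, 2.77-fold more. These log2 ratios of 1.77, 1.69 and 1.47 took ranks 8, 9 and 17 from the top among the 15309 genes whose mean normalized value reached 10, in an order that rests on deposited ratios. By reads *Ckm* and *Myh1*, with deposited log2 ratios of 0.75 and 0.27, had 4.97 and 4.56, and *Cox6a2* 1.91. *Cox4i2* did not share this, with a normalized value of 270 in WT and 322 in KO and a log2 ratio of 0.25. Of the 8 genes 3 lay at least 1.5-fold higher in KO, and the same 3 at least 2-fold higher. Over all 15309 genes 2.78% were at least 1.5-fold higher, 0.483% at least 2-fold higher and 3.12% at least 1.5-fold lower in KO. The genes were chosen on this contrast, so nothing is read from the count.

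The ubiquitous forms were all slightly higher in KO. *Cox4i1*, whose product binds ATP as a regulator, had a normalized value of 9435 in WT and 12624 in KO, with a log2 ratio of 0.42. *Cox6a1* had 8391 and 11113 with a ratio of 0.41, *Cox7a2* 2043 and 2830.4 with 0.47, and *Cox8a* 11044 and 13756 with 0.32 on the log2 scale. None of them reached 1.5-fold. In these data short genes tended to be higher in KO, and all 8 genes are short, with lengths of 383 to 760 bases. Among the 767 genes of up to 837 bases the median log2 ratio was 0.27, and 7.56% were at least 1.5-fold higher, against a median of 0.0082 over all tested genes. Relative to genes of like length the log2 ratios of the ubiquitous forms were 0.049 to 0.20, that of *Cox4i2* was -0.018, and those of *Cox6a2*, *Cox7a1* and *Cox8b* were 1.2, 1.42 and 1.5. The part of RNA quality or library preparation in this trend was not tested.

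**Figure D2:**
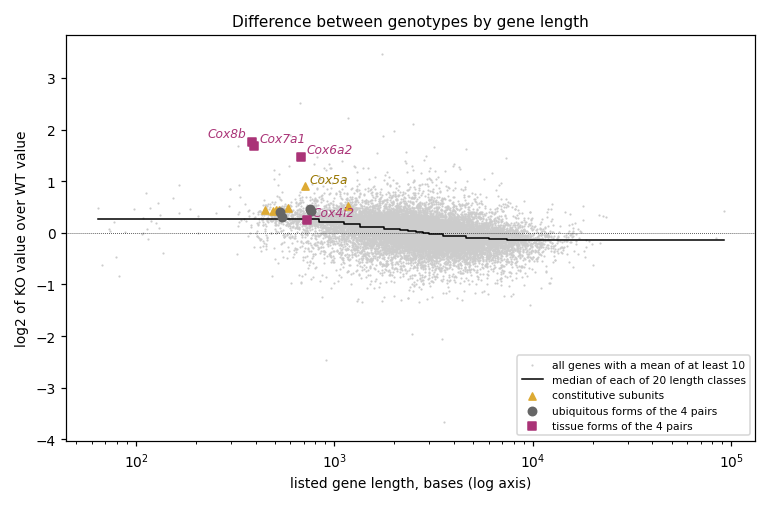
Log2 of the KO over the WT value against listed gene length in bases (log axis) for the 15309 genes whose mean normalized value reached 10, with the median of each of 20 length classes as a line. *Cox6a2*, *Cox7a1* and *Cox8b* lie at 1.47 to 1.77, far above the line at 0.27 for the shortest genes, while the ubiquitous forms and *Cox4i2* lie near it.

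Both partners of every pair fall into this class of shortest genes, so the balance between them was compared directly. The tissue form made up 5.60% of the Cox8 pair in WT and 13.9% in KO, as a share of the normalized values per kilobase. In the Cox7a pair the share of *Cox7a1* was 16.1% in WT and 30.8% in KO, the largest share of a tissue form among the 4 pairs in either genotype. Without division by gene length it was 9.10% in WT and 18.9% in KO. *Cox6a2* made up only 0.120% of its pair in WT and 0.25% in KO, so that *Cox6a1* exceeded it 834-fold in WT and 399-fold in KO. These rest on deposited values of *Cox6a2*, 12.8 in WT and 35.4 in KO, where its scaled reads had means of 10.1 and 38.1. In the Cox4i pair the share of *Cox4i2* was 2.91% in WT and 2.59% in KO. The ratio of tissue to ubiquitous form was hence 2.73-fold higher in KO for Cox8, 2.32-fold for Cox7a and 2.09-fold for Cox6a, and 0.889-fold of that in WT for Cox4i. *Cox8a* exceeded *Cox8b* 16.9-fold in WT and 6.17-fold in KO, and *Cox7a2* exceeded *Cox7a1* 5.21-fold in WT and 2.24-fold in KO.

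As sums, the pairs did not differ alike. The summed normalized value per kilobase of the Cox7a pair was 3230 in WT and 5427 in KO, a log2 ratio of 0.75. For the Cox4i, Cox6a and Cox8 pairs the log2 ratio of the sum was 0.42, 0.41 and 0.45. The Cox7a pair was also the lowest, since the sums of the others in WT were 12787, 15762 and 21466. Summed over the 4 pairs, the tissue forms had a normalized value of 2113 per kilobase in WT and 6259 in KO, and the ubiquitous forms 51132 and 66455.

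*Cox6a2* was low enough for its reads to be found in each library. It had 8, 9 and 14 reads in the WT libraries and 55, 26 and 32 in KO libraries a, b and c. Per library this gives 7.73, 8.81 and 13.9 scaled reads in WT, and 53.0, 26.2 and 34.9 in KO. All KO libraries thus lay above all WT libraries, with KO library a the highest. Such a separation was seen for 5.94% of the 1112 genes of like level whose reads were found, and the genes were chosen on this contrast. The means of the scaled reads were 10.1 ± 3.29 in WT and 38.1 ± 13.7 in KO (SD, n = 3), a ratio of 3.75-fold, where the deposited values give 2.77-fold. Without KO library a, where the muscle genes were high, the ratio was 3.01-fold, and *Cox6a2* in KO libraries b and c exceeded every WT library. The part of muscle RNA in the *Cox6a2* reads of KO library a was not tested. Intervals of counting error were not computed for these reads. For *Cox7a1* and *Cox8b* the reads of each library could not be worked out, so their values cannot be given without KO library a, and the part of muscle RNA in them was not tested.

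**Figure D3:**
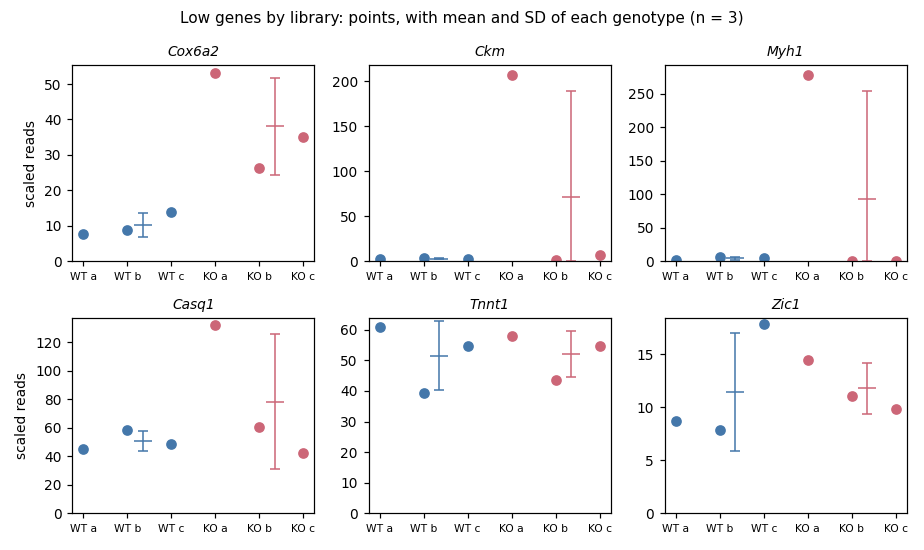
Scaled reads of *Cox6a2* and 5 other low genes in each of the 6 libraries, with the mean and SD of each genotype (n = 3, bars cut at 0). *Ckm* and *Myh1* are high in KO library a alone, at 207 and 279, whereas *Cox6a2* is higher in all 3 KO libraries than in any of WT. *Tnnt1*, of slow muscle, and *Zic1*, a marker of classical brown fat, overlap between the genotypes.

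The constitutive subunits of complex IV lay near the ubiquitous forms with 1 exception, and the minor isoforms were more varied. Of the 7 constitutive subunits, all were higher in KO, and the median log2 ratio was 0.45, against 0.0082 over all tested genes. The median of the 7 was 0.18 relative to genes of like length. The share of all genes that were higher in KO was not computed. At least 1.5-fold higher were 2.78% of all tested genes and 7.56% of those of up to 837 bases. *Cox5b*, *Cox6b1*, *Cox6c*, *Cox7b*, *Cox7c* and *Ndufa4* lay between 0.42 and 0.52 on the log2 scale. *Cox5a*, whose product sits on the matrix side of the complex, had a normalized value of 2353 in WT and 4400.2 in KO, a log2 ratio of 0.90, and was the only one to reach 1.5-fold. Of its stretches of 31 bases 16.3% also occur in 2 other genes, so its value is less certain. Of the minor isoforms, *Cox6b2*, the testis form of Cox6b, had a log2 ratio of 0.52, with a normalized value of 106 in WT and 152 in KO. *Cox7a2l*, a relative of the Cox7a pair that joins respiratory complexes, had normalized values of 4260 and 4510.0 with a log2 ratio of 0.08, unlike *Cox7a1*. *Ndufa4l2*, a relative of *Ndufa4*, had a ratio of 0.18. *Cox7b2*, *Cox8c* and the 3 subunits encoded by mitochondrial DNA were not found among the listed genes by the symbols searched, so they have no values here.

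Of the 25 listed factors that assemble complex IV, 24 reached the minimum mean, and all 24 were higher in KO. Their median log2 ratio was 0.35, against 0.0082 over all tested genes. Relative to genes of like length the median was 0.18, and some factors lay below 0, down to -0.20 for *Cox20*. The share of all genes that were higher in KO was not computed. Only 2 reached 1.5-fold, *Coa4* with 0.70 and *Cmc2* with 0.65, and neither did relative to genes of like length. Over all tested genes 2.78% were at least 1.5-fold higher. The most abundant, *Coa5*, *Higd2a* and *Cox15*, had log2 ratios of 0.21, 0.25 and 0.045. None of these factors came near the ratios of *Cox7a1* and *Cox8b*.

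Marker genes of the cells that carry the tissue forms were set beside them. Over all 15309 tested genes 2.78% were at least 1.5-fold higher in KO. Of the 15 genes of brown and beige adipocytes all were listed. Of the 14 with the minimum mean 7 were at least 1.5-fold higher in KO, and also 7 relative to genes of like length. *Cidea*, of the lipid droplet, had a normalized value of 304 in WT and 1427 in KO, *Ucp1*, the uncoupling protein, 438 and 1287, and *Otop1*, a proton channel, 79.6 and 252. *Kcnk3*, with the highest mean over both genotypes, had 1244 and 1338. The median log2 ratio of the 14 was 0.57, and 12 of them lay above 0. *Prdm16*, *Lhx8*, *Zic1* and *Ebf2* of the same list had small log2 ratios of -0.082, -0.013, 0.031 and 0.18. The summed normalized value of the list was 4099 in WT and 7497 in KO. Among those with the minimum mean, reads were found for *Esrrg*, *Dio2*, *Lhx8* and *Zic1*. *Esrrg* had 131, 67.6 and 65.5 scaled reads in KO libraries a, b and c, and 51.9 to 84.0 in WT. *Dio2* had 52.0, 26.2 and 20.7 in KO, and 12.6, 10.8 and 50.6 in WT. *Lhx8* had 78.1, 93.9 and 56.7 in KO, and 77.3, 56.8 and 97.3 in WT. *Zic1* had 14.5, 11.1 and 9.82 in KO, and 8.69, 7.83 and 17.9 in WT, so both genes overlapped between the genotypes. *Cidea*, *Ucp1* and *Otop1* were too high for this search, so their values cannot be given without KO library a. All 20 skeletal muscle genes were listed, and 7 of the 18 with the minimum mean were at least 1.5-fold higher by deposited values. Relative to genes of like length 5 were. Among the 7, *Acta1*, the actin of muscle fibres, had 171 in WT and 409.9 in KO. The summed normalized value of the 20 muscle genes was 4267 in WT and 5344.5 in KO. Over the 10 muscle genes with reads found, the summed scaled reads were 190 ± 16.7 in WT and 443 ± 443 in KO (SD, n = 3), 2.34-fold higher, where the deposited values of these genes give 1.33-fold. Without KO library a the scaled reads gave 0.988-fold. By reads *Ckm* and *Myh1* were 31.3-fold and 23.7-fold higher, and *Mybpc1*, a myosin binding protein, 2.39-fold, where its deposited values give 1.42-fold. *Des*, *Myl1* and *Pygm*, the most abundant, had log2 ratios of 0.25, 0.21 and -0.039. Heart genes were low, and only 2 of the 7 listed had the minimum mean. These were *Tnni3*, with normalized values of 76.0 in WT and 91.0 in KO, and *Tnnt2*, with 21.4 and 32.4. Their log2 ratios were 0.26 and 0.60, so 1 of them reached 1.5-fold, but neither did relative to genes of like length. *Tnnt2* had 23.2, 12.7 and 24.8 scaled reads in the WT libraries and 41.4, 33.3 and 26.2 in those of KO. *Nppa*, below the minimum mean, had 12 reads in WT and 4 in KO. In whole tissue, a different number of cells of a type and a different amount of RNA per cell cannot be told apart.

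**Figure D4:**
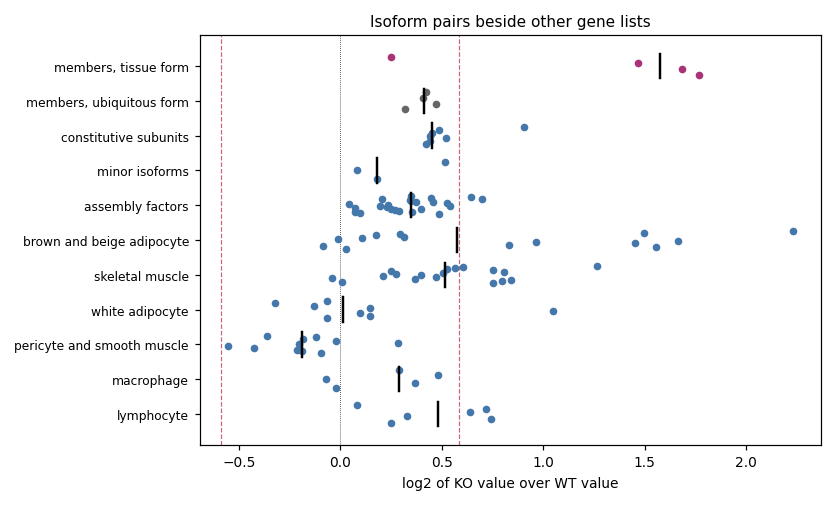
Log2 of the deposited KO over the WT value of each gene whose mean normalized value reached 10, by list, with the median as a bar and 1.5-fold as dashed lines. The tissue forms *Cox6a2*, *Cox7a1* and *Cox8b* lie among the highest brown and beige adipocyte genes, and above the deposited ratios of the 18 muscle genes, among which *Ckm* and *Myh1* have far higher ratios by reads, 4.97 and 4.56.

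*Cox4i2* was set beside the vessel wall. Of 11 genes of pericytes and smooth muscle none reached 1.5-fold in either direction, and 1 was higher in KO. Their median log2 ratio was -0.19, with *Rgs5* at -0.19, *Notch3* at -0.42 and *Myh11* at -0.55. These 3 genes are 4094 to 7943 bases long. *Cox4i2*, of 727 bases, was at 0.25, and the pericyte gene *Higd1b*, of 753 bases, at 0.28. Relative to genes of like length *Cox4i2* was at -0.018, *Higd1b* at 0.016 and the median of the list at -0.21. Of the other lists, the median log2 ratio was 0.015 for 8 white adipocyte genes, 0.29 for 5 macrophage genes, 0.48 for 6 lymphocyte genes and 0.13 for 2 of 5 epithelial genes. Of the lymphocyte genes 3 were at least 1.5-fold higher, with *Lck* of T cells at 0.74, and 1 after comparison with genes of like length. Over all tested genes 2.78% were at least 1.5-fold higher. *Lep*, the leptin gene, was at 1.05.

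The genes closest to each member in log2 ratio were sought among genes whose mean lay within 0.32 of it on the log2 scale, a likeness over the 2 genotype values only. For *Cox8b* they were *Retnla*, *Ucp1* and *Cidea*, among 2013 genes, with log2 ratios of 1.90, 1.55 and 2.23. For *Cox7a1* they were *Cpt1b*, *Ppara* and *Paqr9*, among 1495 genes, with 1.5, 1.45 and 1.36. For *Cox6a2* they were *Klra13-ps*, *Prkag3* and *Asb12*, among 565 genes, with 1.47, 1.40 and 1.30. *Cpt1b* and *Ppara* serve the oxidation of fatty acids, and *Prkag3* is a subunit of AMP-activated protein kinase known from muscle. The ubiquitous forms were nearest to genes of other kinds, *Cox4i1* to *Rplp2*, *Rps10* and *Pkm*, *Cox6a1* to *Rpl34*, *Pkm* and *Rpl37a*, and *Cox8a* to *Ucp2*, *Rpl24* and *Myl6*. *Cox7a2* was nearest to *Ndufb3* and *Ndufa8*, which are subunits of complex I, and to *Akr1b3*. *Cox4i2* was nearest to *Urb2*, *Qtrt1* and *Tmem71*, among 1225 genes.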

How the data were processed

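RNA was measured in 3 WT and 3 KO samples of iAT at postnatal day 6, extracted with TRIzol. The signal deposited by the authors is 1 value per gene and genotype. The mean of both values is that of the reads scaled to a common library size, while their ratio is smaller in size than that of the scaled reads where these are known. The submitters' processing notes name Bowtie2, RSEM and DESeq2, without versions. The genome build is not given in the sources used here. The table also holds the authors' fold changes and p-values, which were not used, and a shorter table of selected genes was left out. Each ratio is the KO over the WT value, with no test, among genes whose mean normalized value reached 10. Reads per library were searched as whole multiples of the 6 values of genes with a lone read, for genes with a mean of 10 to 25 and list genes of up to 90. They were given where exactly 1 combination matched, which held for 35 of 40 list genes. Sums of muscle genes by reads were added after seeing the data. The search and the centring on 20 length classes were tested on simulated data. Named genes were the members, all other subunits, the 3 most abundant and the 2 with the largest ratios of other lists, and 3 genes nearest to each member. Genes outside this rule are *Ckm*, *Myh1*, *Mybpc1*, *Higd1b*, *Nppa*, *Tnnt1*, *Zic1*, *Prdm16*, *Lhx8*, *Ebf2*, *Esrrg*, *Dio2*, *Cox20* and those named so in the closing section. The members and lists were chosen with earlier results of these data known. Coding sequences stood in for proteins, which were not compared, and were those of the transcript nearest in length to the listed gene length. They were aligned globally with Biopython 1.88. Python 3.11.15 with numpy 2.4.6 and pandas 2.3.3 was used.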

Additional observations from a re-analysis of the deposited data

How the results depend on the processing

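Of 108 alternatives 96 kept the side of 1.5-fold or moved little, and none turned a ratio past 1.5-fold around. A ratio that shrank below 1.5-fold was among the 96, such as *Cox8a* from 0.32 to 0.049 relative to genes of like length. So was the count of members at least 1.5-fold higher, which was 2 in place of 3 at a minimum mean of 100, where *Cox6a2* is left out. *Cox6a2*, *Cox7a1* and *Cox8b* remained at least 2-fold higher in KO under equal sums, centring on the median gene or on genes of like length, and pseudocounts of 1, with 0.99 for *Cox6a2* on the log2 scale at a pseudocount of 10 as the exception. Centred on genes of like length, *Cox4i2* turned to -0.018, the median of the minor isoforms to -0.026, and 0 assembly factors reached 1.5-fold. At a threshold of 0.32 on the log2 scale, 6 of the 8 genes were counted as higher. The share of all genes past 0.32 was not computed. All 8 are short, and the median log2 ratio of genes of up to 837 bases was 0.27, so nothing is read from this count. Without division by gene length the tissue share was 9.10% in WT and 18.9% in KO for Cox7a, and 4.0% and 10.2% for Cox8. Leaving out each library gave log2 ratios of 1.59 to 2.20 for *Cox6a2* from its reads. No paired analysis was possible because the table holds 1 value per genotype and the libraries found could not be tied to replicate numbers. The search for reads was limited to low genes by the means set for it and by the need for exactly 1 matching combination. The values used here give no error for *Cox7a1* or *Cox8b*.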

Other observations

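Other enzymes and carriers that exist as a ubiquitous and a muscle, heart or brown fat form did not all follow the complex IV pairs. *Cpt1b*, the muscle and brown fat form of the carnitine transferase of the outer mitochondrial membrane, had a normalized value of 243 in WT and 686 in KO, while its partner *Cpt1a* had 2455 and 2006. *Fabp3*, the heart fatty acid binding protein, had normalized values of 26.5 and 151, beside 156285 and 173188 for *Fabp4*, the adipocyte form. For the adenine nucleotide carriers the log2 ratio was 0.33 for *Slc25a4*, the heart and muscle form, and 0.35 for *Slc25a5*. For the enolases it was 0.47 for *Eno3* of muscle and 0.33 for *Eno1*. *Ldhb*, the heart form of lactate dehydrogenase, had a normalized value of 689 in WT and 1326 in KO, a log2 ratio of 0.95, beside 0.37 for *Ldha*, the muscle form. *Atp2a1*, the calcium pump of fast muscle, had a log2 ratio of 0.57, beside -0.051 for *Atp2a2*. *Cpt1a*, *Slc25a4*, *Slc25a5*, *Eno1*, *Eno3*, *Ldhb*, *Atp2a1*, *Atp2a2*, *Ckmt2*, *Tnnt1*, *Casq1* and *Mb* were named after their values were seen. *Ckmt2*, the mitochondrial creatine kinase of muscle, had 0 reads in each WT library and 10, 4 and 3 in the KO libraries, below the minimum mean.

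In KO library a, where the muscle genes were high, the slow muscle gene *Tnnt1* had 57.8 scaled reads, within the 39.2 to 60.8 of the WT libraries, whereas *Casq1*, of the calcium store of fast fibres, had 132 against 45.4 to 58.7. *Mb*, the myoglobin gene, had 13.5, 11.1 and 22.9 scaled reads in the KO libraries and 12.6, 2.94 and 2.98 in those of WT, so the genotypes overlapped.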
